A study of Mus with 6 samples.

Results

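miR-210 is a microRNA that the hypoxia-inducible factor HIF-1 is known to activate when oxygen is low. Its 2 mature arms, mmu-miR-210-3p and mmu-miR-210-5p (written below without the species prefix), were followed in small RNA libraries of mouse adipocytes, as 2 of the 929 known mature miRNAs listed in every deposited table. The members were taken by name. The CIH group comprised 3 libraries labelled as exposed to chronic intermittent hypoxia, a regime of repeated falls in oxygen that is used to model sleep apnoea, and the control group comprised 3 libraries. Cells of both groups were wild-type and of C57BL/6 background. The labels used here give no oxygen levels, length of exposure, fat depot, age or sex, and do not say whether mice or cultured cells were exposed.

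A mature miRNA is cut from a hairpin precursor whose 2 sides, the 5p and the 3p arm, can each be kept. The kept strand guides the RNA-induced silencing complex to messenger RNAs. For miR-210 the 3p arm is the usual guide. That arm is known to repress Iscu, an iron-sulfur cluster scaffold of mitochondrial metabolism, and Gpd1l, whose loss is known to stabilise HIF-1 alpha. In many cell types miR-210 is regarded as the miRNA that responds most regularly to sustained hypoxia. Messenger RNAs, oxygen and HIF-1 were not measured here.

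The precursor gene, Mir210, lies on chromosome 7 from 141221384 to 141221493 (GRCm38; RefSeq table of GRCm38.p6). That span overlaps no other gene in the table. The nearest gene on one side is Rassf7, which codes for a protein of the Ras association family and ends 2.73 kb before Mir210. The nearest on the other side is the predicted gene Gm51460, at 6.71 kb, followed by Phrf1 at 6.98 kb. The neighbouring miRNA genes are Mir7062 and Mir7063, at distances of 1235 kb and 399.2 kb. Their arms in the shared list had at most 4 counts in any library, too few to compare with miR-210.

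Library totals ran from 6291101 to 11264151 counts. The libraries numbered 3 stood apart from the others in both groups. Across 257 miRNAs, which share their libraries and depth, log2 CPM (counts divided by the library total, on a scale common to all libraries) correlated at 0.972 to 0.994 among the 4 libraries numbered 1 and 2, and at 0.889 to 0.905 between these and the libraries numbered 3. The 2 libraries numbered 3 correlated with each other at 0.899. The leading miRNA was miR-21a-5p in the libraries numbered 1 and 2 and miR-148a-3p in those numbered 3, where it took 24.9% of the CIH library and 49.4% of the control library. Summed miRNAs linked to fat cells (5 names) ran from 153604 to 316451 CPM in CIH and from 224715 to 597047 CPM in control. Leukocyte markers (4 names) summed to 0.266 to 3.27 CPM in CIH and 0.363 to 4.29 CPM in control. miR-223-3p was at 0 in both libraries numbered 3, and miR-142a-5p in control library 3. miR-142a-3p was at 0 in the libraries numbered 3 and also in those numbered 2. Results are therefore given within the libraries numbered 1 and 2, in the pair numbered 3 and over all 6 libraries.

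Within the libraries numbered 1 and 2, both arms of miR-210 were lower in CIH than in control. miR-210-3p stood at 129 and 166 CPM in CIH libraries 1 and 2, against 565 and 551 CPM in control libraries 1 and 2. The groups did not overlap, which was also true, in the same direction, of 32% of the 459 miRNAs tested. In reads, miR-210-3p had 947 and 1672 counts in CIH and 3553 and 5354 counts in control. miR-210-5p, the arm that is usually discarded, stood at 2.04 and 3.09 CPM in CIH (15 and 31 counts), against 13.2 and 18.3 CPM in control (83 and 178 counts). These groups did not overlap either.

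edgeR's quasi-likelihood test gave miR-210-3p a log2 difference of -1.75 (SE 0.24, 95% interval -2.23 to -1.26, Benjamini-Hochberg adjusted p = 1.9e-05, 2 libraries per group). That corresponds to a level 3.35-fold lower in CIH, with an interval of 2.39 to 4.70. The value of miR-210-5p was -2.44 (SE 0.42, 95% interval -3.29 to -1.59, adjusted p = 0.000215). In the same fit 24 of 459 miRNAs fell, a background of 5.23%, and 19 rose, a background of 4.14%. Among the 459, miR-210-3p had the smallest p-value and the 7th lowest log2 difference. miR-210-5p had the lowest log2 difference and the 4th smallest p-value. Without CIH library 1 the log2 difference of miR-210-3p was -1.45, with an adjusted p of 0.0579. For miR-210-5p it was -2.07, with an adjusted p of 0.123. In that fit, on the same 459 names, edgeR called 0 miRNAs and 86 had an unadjusted p under 0.05. With the names filtered again without that library, 23 were called and the adjusted p was 0.00395 for miR-210-3p and 0.0224 for miR-210-5p. On the same 459 names, the count called was 90 without CIH library 2, 13 without control library 1 and 8 without control library 2, and both arms were called in each of these. These fits give the remaining single library the spread seen in the group of 2.

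Counts in single libraries show how far the spread exceeded counting error. Control libraries 2 and 1 held the same level of miR-210-3p within counting error, at a ratio of 0.975 (95% interval 0.935 to 1.02). CIH library 2 was above CIH library 1 by a ratio of 1.29 (1.19 to 1.40). For miR-210-5p the ratio of control library 2 to control library 1 was 1.39 (1.06 to 1.82), and that of CIH library 2 to CIH library 1 was 1.51 (0.791 to 3.01), which includes equality. The highest CIH value of miR-210-3p among these 4 libraries was 166 CPM and the lowest control value 551 CPM, so the gap between groups was larger than the spread inside either.

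In the pair numbered 3 both arms were near the bottom of their range. miR-210-3p had 671 counts in CIH library 3 (59.6 CPM, 95% interval 55.1 to 64.3) and 355 counts in control library 3 (43.0 CPM, 38.6 to 47.7). miR-210-5p had 21 counts in CIH (1.86 CPM, 1.15 to 2.85) and 5 counts in control (0.605 CPM, 0.197 to 1.41). By library totals CIH was thus above control, by a ratio of 1.39 (1.22 to 1.58) for miR-210-3p and 3.08 (1.13 to 10.5) for miR-210-5p. By the same measure 73.5% of 456 miRNAs were higher in CIH library 3, so this direction was that of most miRNAs. These intervals cover counting error only, and with 1 library per group the pair has no test.

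The direction of miR-210-3p in that pair turned with the scaling. Its log2 difference was 0.47 on library totals with 0.5 CPM added, -0.33 after TMM scaling (trimmed mean of M values) and -0.47 with DESeq2-type size factors. TMM set a factor of 0.635 for control library 3 and 1.11 for CIH library 3. The value of miR-210-5p kept its sign under these scalings, at 1.10, 0.59 and 0.50.

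**Figure D1:**
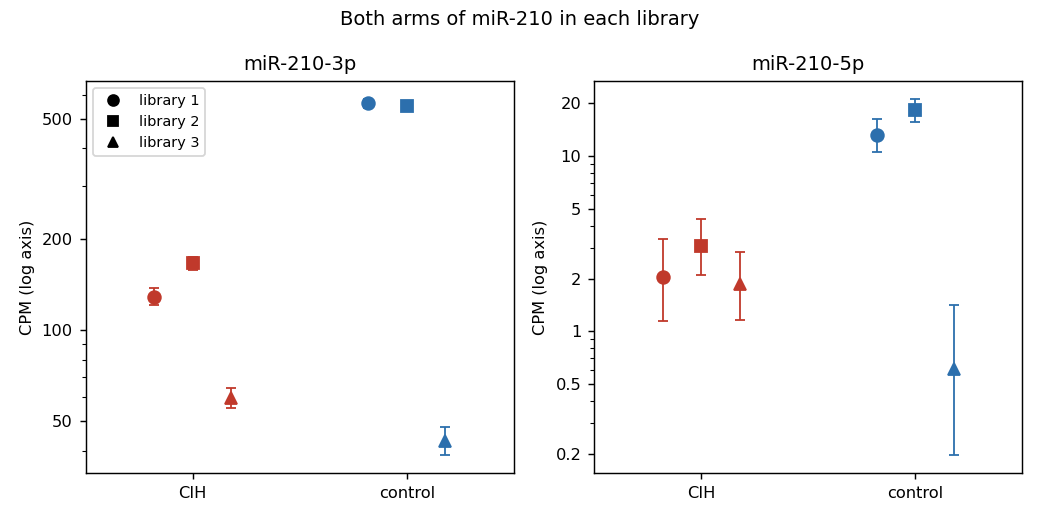
Level of miR-210-3p (left) and miR-210-5p (right) in each library, in CPM on a log axis, with CIH left of control; symbols give the library number and bars the exact 95% Poisson interval of the count. Control libraries 1 and 2 stand at 565 and 551 CPM for miR-210-3p, above every CIH library, while control library 3 stands at 43.0 CPM, below every CIH library.

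Control libraries 1 and 2 lay farther from control library 3 in miR-210-3p than from the CIH libraries of their own number. Control library 3 was 13.1-fold lower than control library 1 (95% interval 11.8 to 14.7) and 12.8-fold lower than control library 2 (11.5 to 14.3). CIH library 1 was 4.38-fold lower than control library 1 (4.07 to 4.71), and CIH library 2 was 3.31-fold lower than control library 2 (3.13 to 3.50). Inside the CIH group, library 3 was 2.17-fold lower than library 1 (1.96 to 2.40) and 2.79-fold lower than library 2 (2.55 to 3.06). The range of miR-210-3p over the 6 libraries was 3.70 on the log2 scale, against a median range of 2.06 over the 257 miRNAs whose mean reached 10 CPM, of which 23 had a larger range.

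From high to low, the order of miR-210-3p was control 1, control 2, CIH 2, CIH 1, CIH 3 and control 3, and control 1 and 2 were the only neighbours whose counting intervals overlapped. For miR-210-5p the order was control 2, control 1, CIH 2, CIH 1, CIH 3 and control 3. There the intervals of control libraries 2 and 1 overlapped, those of the 3 CIH libraries overlapped one another, and that of control library 3 overlapped those of CIH libraries 1 and 3.

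With group as the only term and all 6 libraries, neither arm passed. The mean of miR-210-3p was 118 ± 54.3 CPM over the CIH libraries, against 386 ± 297 CPM over the control libraries (SD, n = 3 each), and the ranges overlapped. Its fitted log2 difference was -1.60 (SE 0.80, 95% interval -3.46 to 0.27, edgeR adjusted p = 0.885). The mean of miR-210-5p was 2.33 ± 0.66 CPM over the CIH libraries, against 10.7 ± 9.11 CPM over the control libraries, with a log2 difference of -2.09 (SE 0.93, interval -4.25 to 0.08, adjusted p = 0.838). edgeR called 0 of 456 miRNAs (0%), and 23 had an unadjusted p under 0.05. DESeq2 and limma-voom called 0 as well, and 37 and 21 had such a p. Both arms passed the filter on low counts in this fit and in that of libraries 1 and 2.

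The library sets were also compared with each other. With group in the model, the libraries numbered 3 were lower in miR-210-3p than those numbered 1 and 2 by a log2 difference of -2.08 (SE 0.47, edgeR adjusted p = 0.0239). For miR-210-5p it was -1.88 (SE 0.83, adjusted p = 0.148). In this contrast 25% of 456 miRNAs were called, 13.6% as lower in the libraries numbered 3. In a fit with the interaction of group and set, the log2 difference of miR-210-3p was higher in the pair numbered 3 than in libraries 1 and 2 by 1.41 (SE 0.42, edgeR adjusted p = 0.0098). For miR-210-5p it was higher by 3.24 (SE 0.90, adjusted p = 0.00628). This interaction was called for 30.3% of the 456 miRNAs, and in the same direction for 16.7% of the 456. The pair has 1 library per group and no spread of its own, so the fit lends it that of the libraries numbered 1 and 2. Its p-values therefore compare these particular libraries and cannot establish a different response to CIH in the sets. Whether the sets differ in preparation, source or exposure cannot be told apart.

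**Figure D2:**
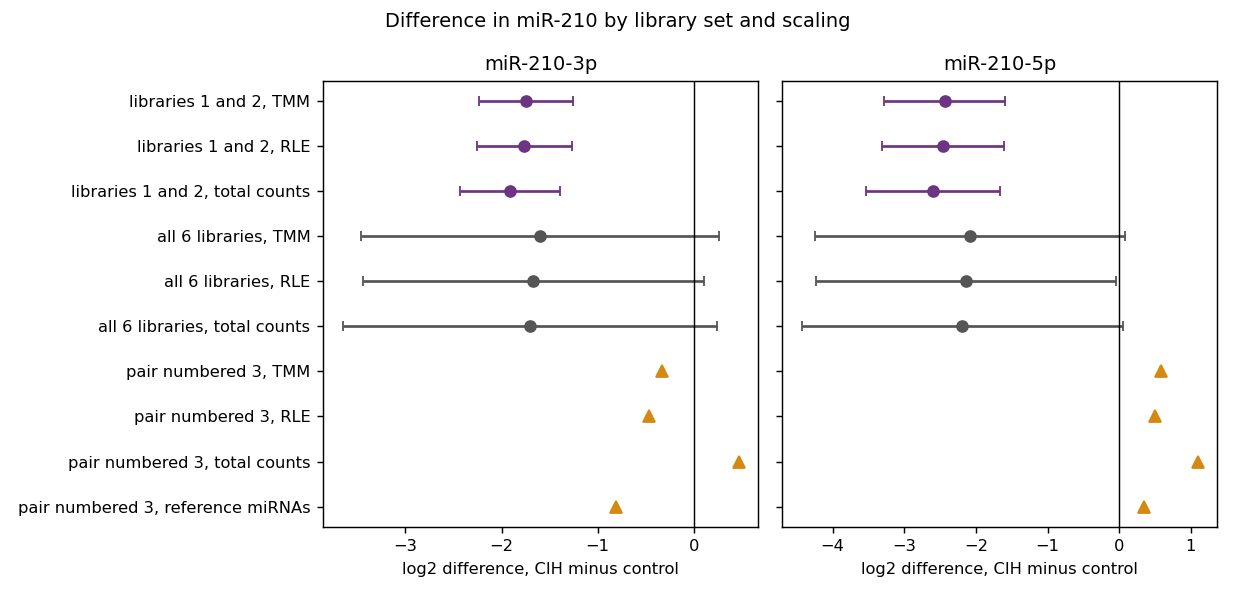
Log2 difference of miR-210-3p (left) and miR-210-5p (right), CIH minus control, by library set and scaling; circles with bars are edgeR values with 95% intervals and triangles are the pair numbered 3, which has no error. In libraries 1 and 2 the values of miR-210-3p lie between -1.92 and -1.75, over all 6 libraries the interval under TMM reaches 0.27, and the pair numbered 3 lies between -0.81 and 0.47.

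The share of reads that came from the 3p arm does not depend on how libraries are scaled. It was 98.4%, 98.2% and 97.0% in CIH libraries 1, 2 and 3, and 97.7%, 96.8% and 98.6% in control libraries 1, 2 and 3. The exact 95% binomial (Clopper-Pearson) intervals ran from 95.4% to 99.1% over the CIH libraries and from 96.3% to 99.5% over the control libraries. The groups overlapped. The means were 97.9% ± 0.79 in CIH and 97.7% ± 0.91 in control (SD, n = 3 each). A two-sided exact permutation test gave p = 0.8, and 0.8 when adjusted over 2 such comparisons. In libraries 1 and 2 alone CIH was 1.06 percentage points above control. With 3 libraries against 3 the smallest p this test allows is 0.1.

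Other miRNAs give a measure for this share. Over 142 miRNAs with both arms listed and at least 10 CPM together, the share of the 3p arm varied between libraries by a median of 4.55 percentage points, and by 1.83 points for miR-210. The range was larger for 92 of the 142. A range in points is bounded where 1 arm holds nearly all reads. As a ratio, 3p to 5p reads of miR-210 ran from 30.1 in control library 2 to 71 in control library 3. The 3p arm was the major one for 57 of the 142. Of 121 miRNAs with both arms tested in libraries 1 and 2, both arms fell for 4, namely miR-148a, miR-205, miR-210 and miR-322, and both rose for miR-155. The log2 difference of miR-210-3p exceeded that of miR-210-5p by 0.69, against a median absolute difference between arms of 0.38 over the 121.

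miR-210-3p was also set against 3 miRNAs often used as references, miR-191-5p, miR-103-3p and miR-16-5p, inside each library. The log2 ratio to their geometric mean was -4.31, -3.84 and -5.09 in CIH libraries 1, 2 and 3, and -2.39, -2.50 and -4.28 in control libraries 1, 2 and 3. The groups overlapped through control library 3. Each CIH library was below the control library of its number, and the mean difference was -1.36. The two-sided exact permutation test gave p = 0.2, and 0.4 when adjusted over the same 2 comparisons. In libraries 1 and 2 it was -1.63. In the pair numbered 3 it was -0.81, but that value rests on which reference is used. It was -1.19 against miR-191-5p, -1.94 against miR-16-5p and 0.70 against miR-103-3p.

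The references themselves varied between the sets. miR-103-3p is also on the list below of miRNAs reported to be induced by hypoxia, and among those linked to fat cells. miR-16-5p is on the list of names reported to fall. miR-191-5p stood at 3080, 2795 and 1568 CPM in CIH libraries 1, 2 and 3, and at 3261, 2956 and 497 CPM in control libraries 1, 2 and 3. miR-16-5p stood at 631, 542 and 811 CPM in CIH and at 669, 749 and 153 CPM in control. Both were thus lowest in control library 3, the library with the lowest miR-210-3p. miR-103-3p stood at 8686, 8919 and 6596 CPM in CIH and at 11957, 13752 and 7712 CPM in control, and was lowest in CIH library 3. In libraries 1 and 2 none of the 3 references passed the test, with log2 differences of 0.06, -0.40 and -0.14 for miR-191-5p, miR-103-3p and miR-16-5p.

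**Figure D3:**
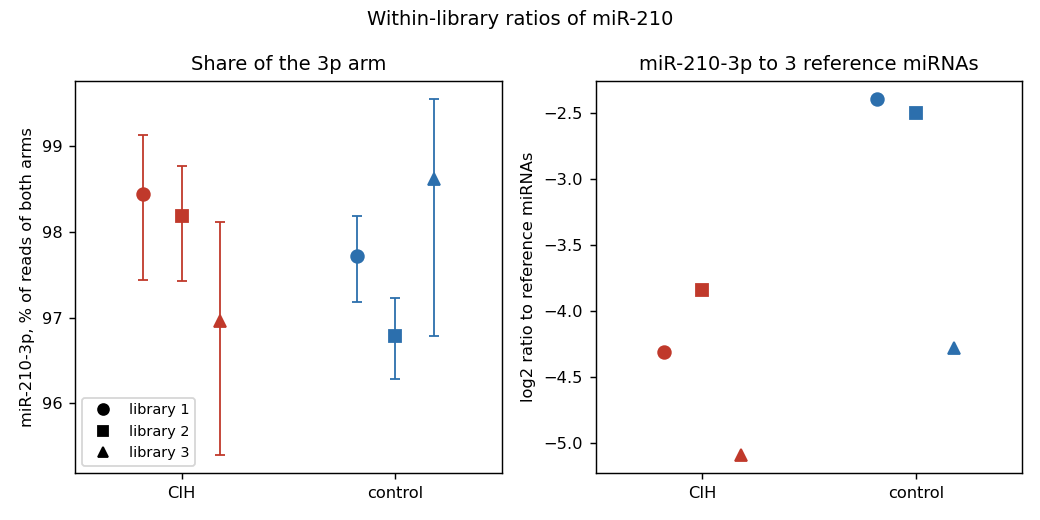
Share of miR-210 reads from the 3p arm with exact 95% binomial intervals (left, in %) and log2 ratio of miR-210-3p to the geometric mean of 3 reference miRNAs (right), for each library, with CIH left of control. The shares of both groups lie between 96.8% and 98.6% and overlap, while the ratios of control libraries 1 and 2, at -2.39 and -2.50, lie above the other 4 libraries.

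miR-210-3p ranked 122nd, 103rd and 158th by count in CIH libraries 1, 2 and 3, and 69th, 68th and 143rd in control libraries 1, 2 and 3, out of 690 to 767 names with at least 1 read. Each CIH library thus had a lower rank than the control library of its number. In all 3 control libraries miR-322-5p, the mouse counterpart of human miR-424 and another miRNA reported to respond to hypoxia, stood directly next to it: at 572 against 565 CPM, at 554 against 551 CPM, and at the same 355 counts in control library 3. In the CIH libraries they separated. miR-322-5p stood at 192, 216 and 819 CPM in CIH libraries 1, 2 and 3, where miR-210-3p stood at 129, 166 and 59.6 CPM.

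Among miRNAs reported to be induced by hypoxia, the arms of miR-210 had the lowest log2 differences in libraries 1 and 2. Of 24 listed names 21 were tested in libraries 1 and 2, of which 1 rose (4.14% of all tested miRNAs rose) and 3 fell (5.23% of all fell). The median log2 difference of the 21 was -0.16, against -0.03 over all 459. Without the arms of miR-210 it was -0.10 over 19 names, with 1 that rose and 1 that fell. Without CIH library 1, on the same names, 0 of the 21 were called, and 3 members of the list with the names filtered again. Without control library 2 the list held 2 called members with the names filtered again. miR-155-5p, a miRNA of immune cells and inflammation, was the one that rose, by 0.76 (SE 0.23, edgeR adjusted p = 0.034). It stood at 308 and 207 CPM in the CIH libraries numbered 1 and 2, against 155 and 176 CPM in control. miR-322-5p was the other one that fell, at -1.30 (SE 0.23, adjusted p = 0.000215).

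The best-known other members did not pass. miR-21a-5p, the most abundant miRNA of the libraries numbered 1 and 2, had a log2 difference of 0.50 (adjusted p = 0.169). miR-23a-3p, miR-24-3p and miR-23b-3p had 0.55, 0.53 and 0.31, while miR-27a-3p had -0.31. miR-103-3p and miR-107-3p, known regulators of insulin sensitivity, had -0.40 and -0.28. In the pair numbered 3, after TMM scaling, 16 of the 21 were higher in CIH, against 240 of all 459. On library totals 18 of the 21 were higher, against 336 of 459. miR-382-5p, miR-429-3p and miR-494-3p were under the filter on low counts. Over all 6 libraries 0 of the 21 were called.

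Of 8 names reported to fall under hypoxia, 7 were tested in libraries 1 and 2 and 0 were called, with log2 differences from -0.59 to 0.69 and a median of 0.03. miR-199a-5p, known to repress HIF-1 alpha, had -0.59 (edgeR adjusted p = 0.246) in libraries 1 and 2 and 2.08 in the pair numbered 3 after TMM scaling. Members of both lists were chosen with results of these data known, and the counts are descriptions.

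**Figure D4:**
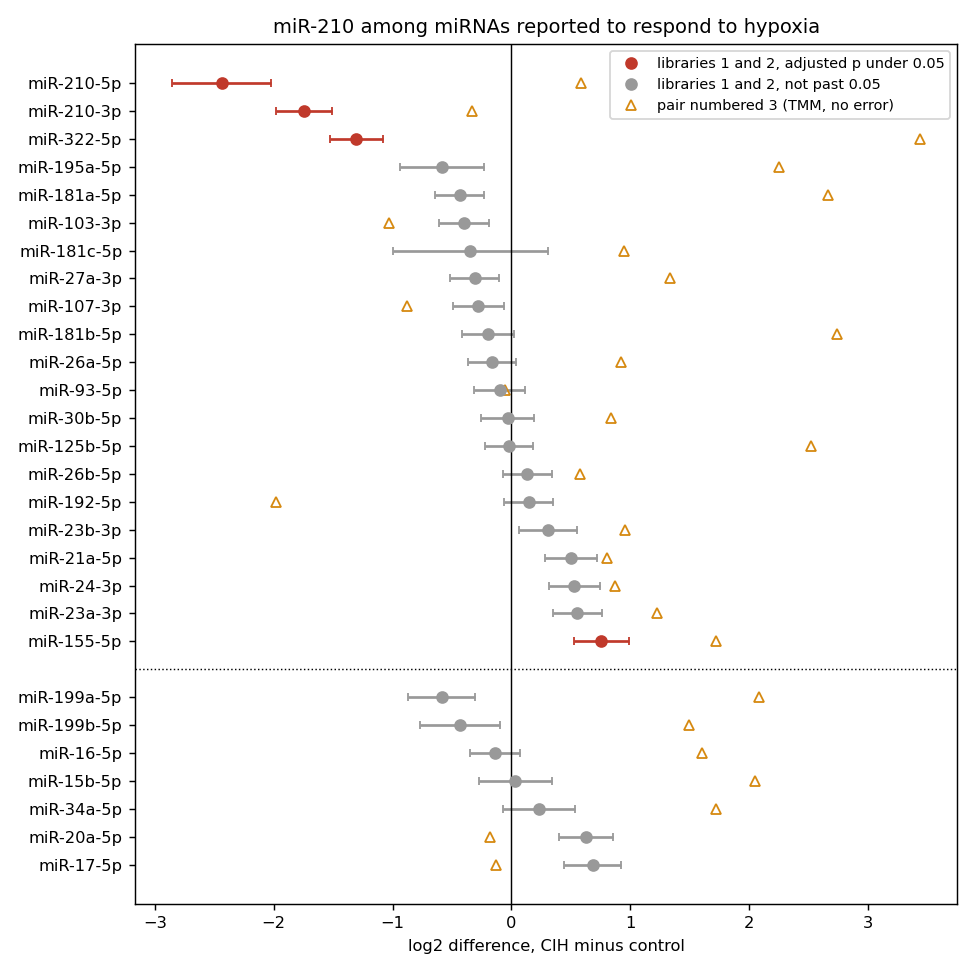
Log2 difference, CIH minus control, of the miRNAs reported to be induced (above the dotted line) and lowered (below it) by hypoxia; circles are edgeR values in libraries 1 and 2 with standard errors, red where the adjusted p is under 0.05, and open triangles the pair numbered 3 after TMM scaling, without error. miR-210-5p and miR-210-3p lie lowest among the circles, at -2.44 and -1.75, while miR-322-5p lies at -1.30 in libraries 1 and 2 and at 3.44 in the pair.

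The miRNAs whose profile over the 6 libraries was nearest to that of miR-210-3p were ranked by the root mean square difference of log2(CPM + 0.5), with each miRNA centred on its own mean. The 5 nearest of 256 candidates with a mean of at least 10 CPM were miR-203-3p (0.33), miR-33-5p (0.38), miR-878-5p (0.47), miR-743b-3p (0.48) and miR-6516-5p (0.61), against a median of 1.37. miR-210-5p, whose mean was under that minimum, lay at 0.36. All 5 were high in control libraries 1 and 2 and low in control library 3, a shape for which the ranking chose them. miR-203-3p, a miRNA of stratified epithelium, stood at 19.9, 19.4 and 7.55 CPM in CIH libraries 1, 2 and 3, and at 54.7, 49.0 and 6.66 CPM in control libraries 1, 2 and 3. In libraries 1 and 2 it fell by 1.24 on the log2 scale (edgeR adjusted p = 0.00751).

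miR-33-5p, which lies in Srebf2 and represses cholesterol export, stood at 7.36, 11.3 and 2.04 CPM in CIH and at 22.7, 17.0 and 1.57 CPM in control. Its log2 difference of -0.90 in libraries 1 and 2 did not pass (adjusted p = 0.134). miR-743b-3p fell by 1.18 there (adjusted p = 0.0155), and miR-878-5p and miR-6516-5p had -0.86 and -0.89 (adjusted p = 0.0939 and 0.0903). The profiles share the libraries and their depth, and the nearness is a description. The values tested in libraries 1 and 2 also entered the choice of the 5, so their adjusted p-values are descriptions too.

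**Figure D5:**
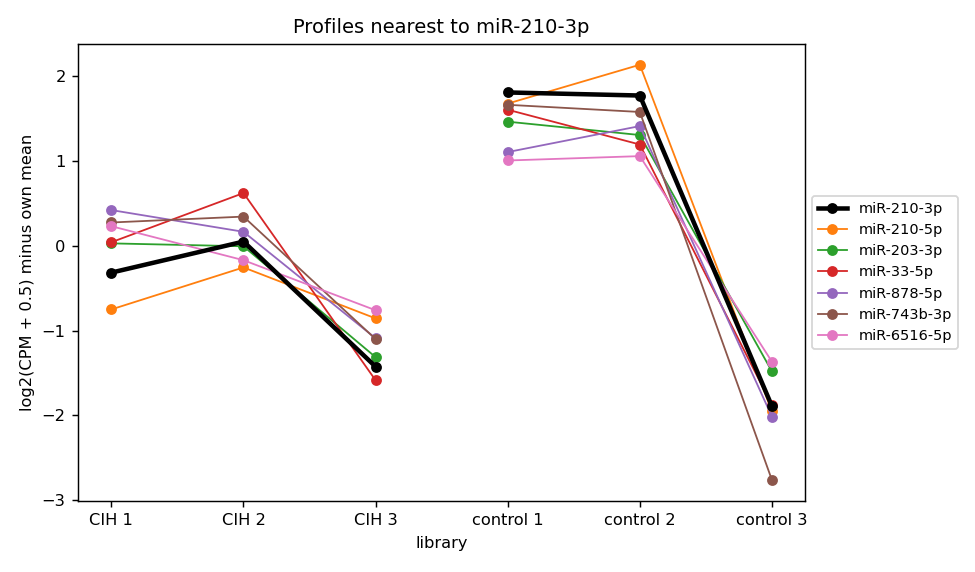
Profiles of miR-210-3p (black), miR-210-5p and the 5 miRNAs nearest to miR-210-3p, as log2(CPM + 0.5) minus each miRNA's own mean over the 6 libraries; lines only join the points of one miRNA, since replicates have no order. All profiles are high in control libraries 1 and 2 and lowest in control library 3, and miR-203-3p is the nearest at a root mean square difference of 0.33.

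Markers of other cell types moved with miR-210 in part. The 7 epithelial miRNAs, miR-203-3p among them, summed to 170, 126 and 18.6 CPM in CIH libraries 1, 2 and 3, and to 409, 334 and 76.3 CPM in control libraries 1, 2 and 3. Of these, 3 were lower in both CIH libraries numbered 1 and 2 than in both controls, as were 32% of the 459 miRNAs tested. In the pair numbered 3 only 1 of the 7 was lower in CIH, so the lower sum there rests on 1 name. miR-203-3p was higher in CIH library 3 (7.55 against 6.66 CPM), and miR-141-3p and miR-429-3p were at 0 in both libraries numbered 3. The 5 miRNAs linked to fat cells were also all lower in the CIH libraries numbered 1 and 2, with sums of 175910 and 153604 CPM in CIH against 224715 and 233115 CPM in control. All 5 were lower in CIH library 3 too, where 73.5% of 456 miRNAs were higher. Their sums there were 316451 CPM in CIH and 597047 CPM in control. The fat cell sum was thus highest in control library 3, the library with the lowest miR-210-3p. Stromal miRNAs (4 names) summed to 11256, 11137 and 66666 CPM in CIH and to 16295, 13577 and 6518 CPM in control. Of the 4, 3 were lower in both CIH libraries numbered 1 and 2. The part of these markers in the difference of miR-210 was not tested. In libraries of bulk RNA, fewer cells of a type and less RNA per cell cannot be told apart.

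Endothelial markers (2 names) summed to 73.1 to 104 CPM in CIH and 33.8 to 137 CPM in control. Erythroid markers (3 names) ran from 3.28 to 106 CPM in CIH and from 8.35 to 129 CPM in control, and muscle markers (3 of 4 names in every table) from 11.6 to 38.7 CPM in CIH and from 12.6 to 111 CPM in control. The hepatocyte miRNA miR-122-5p ran from 2.09 to 5.59 CPM in CIH and from 2.16 to 4.12 CPM in control. For these 4 lists the ranges of the groups overlapped. In libraries 1 and 2, 1 of 2 endothelial and 1 of 3 erythroid names were lower in both CIH libraries than in both controls. The same held for 32% of the 459 miRNAs tested, and for 0 of the 3 muscle, 1 hepatocyte and 4 leukocyte names. The erythroid name was miR-144-3p, at 0 in both of these CIH libraries. Lists this short cannot be told apart from the share over all miRNAs.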

How the data were processed

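Small RNA was read on an Illumina sequencer, per the labels. DESeq 1.8.3, featureCounts 1.5.0-p3 and the GRCm38 build are listed, without their roles, in the submitters' processing notes. How reads were trimmed, aligned and assigned when they matched more than 1 miRNA is not given in the sources used here. Raw counts of reads per mature miRNA were deposited by the authors. In 3 of 6 tables the header says FPKM, but the values are whole numbers with a different total in each library and were taken as counts. Libraries numbered 1 and 2 list 1053 names and those numbered 3 list 1186, and the 929 known names in all tables (99.97% or more of each library) were used. There were 0 columns of other samples.

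CPM is the count divided by the library total. Counts were tested with edgeR 4.0.16 (quasi-likelihood, robust, TMM, filterByExpr) in R 4.3.3, group as the only term, with Benjamini-Hochberg adjustment at 0.05 over all miRNAs tested. The standard error is the log2 difference divided by the root of F. DESeq2 1.42.0 and limma 3.58.1 (voom) were alternatives, beside other scalings, filters, the replicate block and leaving out each library. Filtering names again after leaving out a library was added after seeing the data. The script was tested on simulated data. Composition ratios were compared by exact permutation with scipy 1.17.1, and tables and plots used Python 3.11.15, pandas 2.3.3 and matplotlib 3.10.9.

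Libraries of the same number deviated together from their group means over all 6 libraries (r = 0.283, 0.311 and 0.379, each over 0.1). So did CIH library 2 with control library 1 (r = 0.382) and CIH library 1 with control library 2 (r = 0.178). The deviations thus set the libraries numbered 3 apart, and they do not pair libraries 1 and 2 by number. Within libraries 1 and 2 the correlation for the same number was 0.0831. With 2 libraries per group the deviations mirror each other, so this 1 value cannot decide whether libraries were paired. The labels name no separate animals or cultures, so the p-values rest on the spread among these libraries, which may be technical. No 2 libraries of a group agreed within counting noise (chi-square of at least 135 for each degree of freedom). Intervals of single libraries, of ratios between libraries and of the arm share cover counting error only. Those of the edgeR log2 differences also take in the spread between libraries. A count floor of 3 corresponds to 0.266 to 0.477 CPM. The arms of miR-210, the split by library number and the lists were chosen with earlier results of these data known. Named miRNAs are both arms, the list members called, 3 references, the neighbours in level and the 5 nearest profiles. Other list members and lowered miRNAs named in the text were chosen after their values were seen.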

Additional observations from a re-analysis of the deposited data

Results flagged for a closer look

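Both arms of miR-210 were picked out by the interaction of group and library set. For miR-210-3p the log2 difference was higher by 1.41 in the pair numbered 3 than in libraries 1 and 2 (SE 0.42, edgeR adjusted p = 0.0098). For miR-210-5p it was higher by 3.24 (SE 0.90, adjusted p = 0.00628), which rests on 21 counts in CIH library 3 and 5 in control library 3. The test was called for 138 of 456 miRNAs, and it takes its spread from the libraries numbered 1 and 2. With 1 library per group in the pair, and a split by number chosen with results known, it cannot establish a different response to CIH in the sets.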

How the results depend on the processing

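Within libraries 1 and 2 the log2 difference lay between -1.92 and -1.76 for miR-210-3p and between -2.60 and -2.45 for miR-210-5p in 9 settings of scaling, test, filter and block, all past the threshold (largest adjusted p = 0.0048 and 0.0059). Leaving out a library gave -2.10 to -1.45 and -2.95 to -2.07 with names kept, and -2.09 to -1.46 and -2.94 to -2.03 with names filtered again. The loss without CIH library 1, with names kept, is given in the report, and its cause was not tested. The count of 43 called miRNAs was 24 with at least 10 CPM in 2 libraries, where 264 were tested, and on leaving out a library it was 0 to 90 with names kept. With names filtered again it was 6 to 91, 23 of them without CIH library 1 and 14 without control library 1. It was 34 on total counts (7 higher, 27 lower, against 19 and 24) and 48 with the replicate block. That scaling moved the median of all miRNAs to -0.17, from -0.03. The 4 called members of the induced list were 0 to 6 on leaving out a library.

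Over all 6 libraries neither arm passed in any of 16 settings, and all kept their sign: -2.08 to -1.22 for miR-210-3p and -2.61 to -1.40 for miR-210-5p on leaving out a library. With the replicate block the values were -1.31 (adjusted p = 0.782) and -1.58 (adjusted p = 0.782), and the block changed no call of either arm. In the pair numbered 3 miR-210-3p moved from 0.47 to -0.33 (TMM), -0.47 (size factors) and -0.81 (reference miRNAs), each of which turns its sign. The difference in 3p share of 0.16 percentage points reversed to -0.13 without CIH library 1, -0.00055 without CIH library 2 and -0.30 without control library 2, and ranged from -0.30 to 0.61 on leaving out a library. It was 1.06 in libraries 1 and 2 alone. The difference in the ratio to reference miRNAs, -1.36 with all 3, ranged from -1.97 to -1.02 on leaving out a library and was -0.69 with miR-103-3p alone as reference, -1.63 with miR-191-5p alone and -1.75 with miR-16-5p alone. With 5 counts in control library 3, a change of miR-210-5p in that pair is poorly bounded.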
